A study of Drosophila melanogaster with 4 samples.

Results

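A 70 kb interval on chromosome arm 3R of Drosophila melanogaster is given as the Enhancer of split complex, E(spl)-C, with its neighbour gro. It held 35 of the 7754 positions at which the protein Insensitive (Insv) was called in embryos. These were 11 of 2390 positions in embryos aged 6.5-12 h (late) and 24 of 5364 in embryos aged 2.5-6 h (early). Some neighbouring members share a number in their deposited names. Counts and spacings of positions are therefore not those of separately named calls. The members are all called positions of both lists whose first base lies from 21815001 to 21885001 on 3R in the dm3 build, a stretch of 70 kb given as the complex with its neighbour gro. Every embryo in the series was of the w[1118] stock, listed as wild type. Chromatin was immunoprecipitated with an antibody to Insv or with IgG at each age, in 1 library each, and sequenced. There was therefore no replicate error for any value, and the IgG libraries were not analysed here. The labels give whole embryos, so the tissue in which a position was bound was not recorded.

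The complex is a classical set of Notch targets. When a Notch receptor is activated, its cleaved intracellular part joins the DNA-binding protein Suppressor of Hairless, Su(H), and switches on the HLH genes of the complex. The proteins they encode are basic helix-loop-helix repressors, which recruit the corepressor Groucho and keep cells from becoming neural precursors. Insv is a BEN-domain protein known as a DNA-binding repressor and as a partner of Su(H) in the developing nervous system.

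Of 13 genes listed for the complex and its neighbour, all 13 were found in a RefSeq gene table of Release 6 of the genome, which was used for names and order alone. In that order they are HLHmdelta, HLHmgamma, HLHmbeta, E(spl)malpha-BFM, Kaz-m1, E(spl)m2-BFM, HLHm3, E(spl)m4-BFM, HLHm5, E(spl)m6-BFM, HLHm7, E(spl) and gro. The name E(spl) is read here as E(spl)m8-HLH, although the table also lists it as a synonym of E(spl)mbeta-HLH and E(spl)m2-BFM. The 7 HLH genes encode the repressors. The 4 genes ending in BFM belong to the Bearded family of small proteins, known for members that inhibit the ubiquitin ligase Neuralized and with it Notch ligand activity. Kaz-m1 encodes a protein of the Kazal type of protease inhibitors, and gro encodes Groucho. A further 6 genes listed between the first and the last of them are long non-coding RNAs, and the coding genes next to the complex are CG43116 beside HLHmdelta and Exo84, an exocyst subunit, beside gro. No gene annotation or sequence of dm3 was used here, so Insv positions are given by coordinate and none was assigned to one of these genes.

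Insv positions lay more densely in the E(spl) interval than in nearly all other stretches of 3R. The late list had 11 positions there and the early list 24. In 396 other 3R windows of the same length, laid edge to edge, the late list had a median of 1 position (quartiles 0 and 2) and a highest count of 15. The early list had a median of 2 (quartiles 0 and 5) and a highest count of 18. Thus 394 of 396 windows (99.5%, 95% exact binomial interval 98.2 to 99.9) held fewer late positions, and 396 of 396 held fewer early ones. The comparison describes 1 library per age and has no test over replicates. The windows tile the arm and are not a sample of it. Binomial intervals on shares of windows, here and below, thus give no error for the rank of the E(spl) interval.

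**Figure D1:**
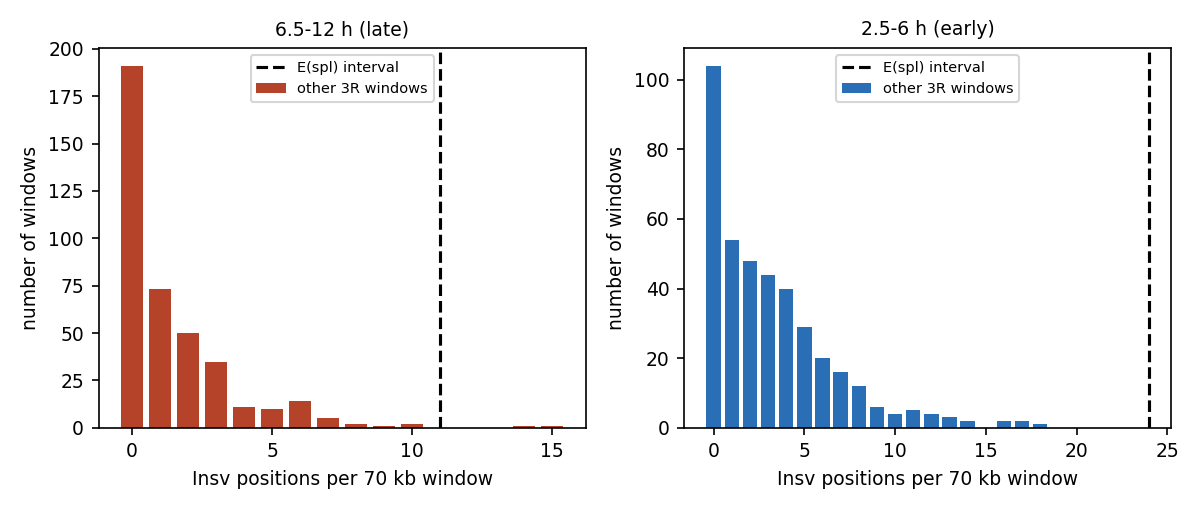
Number of 3R windows of 70 kb (y axis) by the number of Insv positions they hold (x axis), for late (left) and early (right) embryos; bars are the 396 other windows and the dashed line is the E(spl) interval. The interval, with 11 late and 24 early positions, stands at the far right of both distributions, with 2 windows above it in the late list and 0 in the early list.

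The place of the E(spl) interval did not rest on where the windows began. With windows moved along 3R in steps of 1 kb, 136 of 27644 held 11 or more late positions, while 0 held 24 or more early ones, the highest early count being 21. Over all main arms, 9 of 1671 windows reached the late count and 0 reached the early count. The 2 edge-to-edge windows of 3R with more late positions began at 5224764, with 15 late and 17 early positions, and at 12714871, with 14 late and 12 early positions. The early runner-up began at 16354923 and held 7 late and 18 early positions. There were 2.18 early positions per late one in the E(spl) interval, against a median ratio of 2 over the 205 other windows with a late position.

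The stretch to the right of the last members held few Insv positions. After the last late member, at 21881146, the next late position followed 480842 bp further on, and 2 of 576 spacings between late neighbours on 3R were longer. The last early member, at 21881165, was followed by a gap of 133486 bp, which 48 of 1289 early spacings exceeded. On the left, the gaps to the neighbouring position were 117617 bp in the late list and 22674 bp in the early list. Longer spacings were 80 of 576 in the late list and 330 of 1289 in the early list. The positions just outside the bounds had scores of 11.3 on the left and 15.0 on the right in the late list, and of 5.05 and 7.40 in the early list. The outermost members just inside had 6.05 and 8.37 late, and 4.28 and 12.8 early. All 35 members lay at least 3.8 kb inside the bounds, so small shifts of either bound add or remove none of them.

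The scores, the authors' own value for each position on an unnamed scale, were spread widely within both lists, which run from 2.53 to 199.8 late and from 2.54 to 307.2 early. Late members scored from 3.92 to 113.8, with a median of 8.92, and stood at a median percentile of 26.2 within the late list. Early members scored from 4.28 to 82.7; their median was 10.7 and their median percentile 45.9. In the other 3R windows the median of these window values was 47.4 late and 44.0 early. A lower late value than that of the interval was found in 45 of 205 windows (22.0%, 16.5 to 28.2), and a lower early value in 159 of 292 (54.5%, 48.5 to 60.3). Only 132 of these windows late and 238 early held at least 2 positions, so the other values came from single positions. In the 23 other windows with 10 or more early positions, values ran from 15.3 to 85.7 late and from 32.2 to 87.1 early. Most of the 23 were above the interval at both ages, and the lowest late values were 15.3 and 26.9. The interval was thus rich in positions without its typical position being a high-scoring one: 2 of 11 late and 1 of 24 early members were above the 90th percentile of their list, and 5 late and 8 early members were below the 25th.

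**Figure D2:**
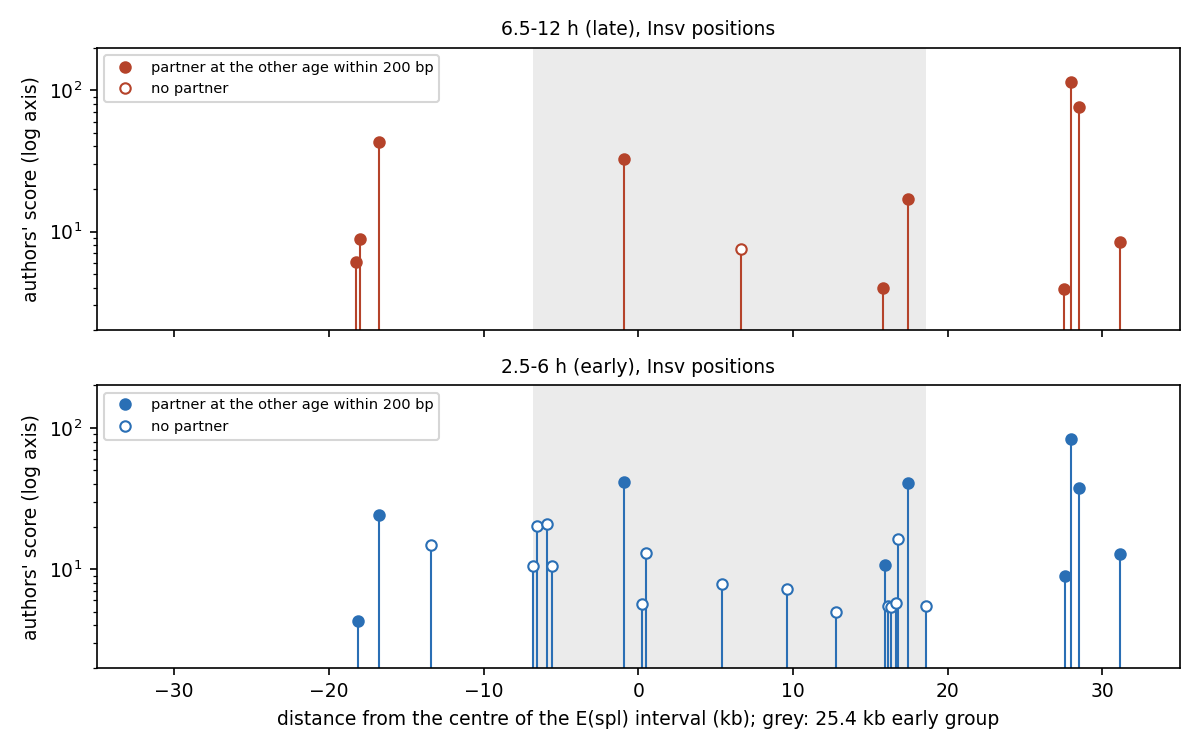
Authors' score (y axis, log scale) of every Insv position in the E(spl) interval against distance from its centre (x axis, kb), late embryos above and early embryos below; filled points have a partner at the other age within 200 bp, open points have none, and the grey band is the early group of 25411 bp. The 14 open early points in the band contrast with 1 open early point outside it.

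The members fell into 3 stretches, set apart by gaps of more than 5000 bp between early neighbours. The left flank, 21831767 to 21836600, had 3 late and 3 early positions. The inner group, 21843167 to 21868577, had 4 late and 17 early positions over 25411 bp. The right flank, 21877543 to 21881166, had 4 late and 4 early positions. The inner group was the second richest of 2605 early groups formed this way, and its 4 late positions fell into 3 late groups. Its bounds depend on the chaining distance: at 3000 bp the richest early group of the interval had 7 positions, and at 10000 bp all 24 early members fell into 1 group.

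The highest scores of the interval at both ages were in the right flank. The late position at 21877990 scored 113.8, number 46 of the late list by score (percentile 98.1). The early one at 21877993 scored 82.7, number 208 of the early list by score (percentile 96.1). About 0.5 kb further on, 21878510 scored 76.2 late (percentile 94.2) and 21878507 scored 37.5 early (percentile 86.1). On the near side, 21877543 scored 3.92 late and 21877589 scored 8.99 early. These 3 positions formed 1 region of 969 bp late and 920 bp early, flanked by a lone position with 8.37 late (21881146) and 12.8 early (21881165). Positions 21877543 and 21877990 share the number 150 in their deposited names, and 21877589 and 21877993 share 142. In those names the number follows the word rank, and it is not the order by score. Every position of the right flank had a partner at the other age.

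In the left flank a high-scoring position recurred at a distance of 1 bp between the ages. It scored 42.8 late, at 21833264 (percentile 83.8), and 24.0 early, at 21833265 (percentile 78.2). About 1.3 kb before it, the late list had positions at 21831767 and 21831992, with 6.05 and 8.92, on both sides of 1 early position at 21831861 with 4.28. Late positions 21831767 and 21831992 share the number 922 in their deposited names. The early position at 21836599, with 14.8, had no late partner; the nearest late position lay 3335 bp away. The early position at 21831861 was thus the nearest one to both late positions around it.

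In the inner group 14 of 17 early positions had no late partner, against 3039 of all 5364 early positions. The inner group was chained from early positions alone, so its shortage of late positions has no test. Its first region, 21843167 to 21844435, had 4 early positions, at 21843167, 21843452, 21844124 and 21844434, with scores of 10.6, 20.3, 20.7 and 10.6, and the nearest late position was 4670 bp away. Of 249 early regions with 4 or more positions at most 1000 bp apart, 12 (4.82%) had no late position within 200 bp of any of theirs, and of those 12 this one was among 8 for which the nearest late position was at least as far away. This region was chosen after its values were seen, and its position beside the others is a description. Its positions 21843167 and 21843452 share the number 667 in their deposited names, and 21844124 and 21844434 share 573.

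Within the inner group, 21849104 scored 32.4 late and 21849096 scored 41.5 early, the highest value of the group at both ages. It was followed by early positions at 21850210 (5.64) and 21850499 (13.0) without late partners. Further along, single early positions stood at 21855438 (7.85), 21859604 (7.21) and 21862782 (4.93), each between 3 and 5 kb from the one before. The late position at 21856621, with 7.48, was the single late member without a partner, 1183 bp from the nearest early position. From 21850210 to 21862782, no position of either list had a partner, and the highest score was the 13.0 at 21850499 in the early list.

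At the right end of the inner group lay the early region with the most positions of the interval. From 21865920 to 21867419 the early list had 6 positions in 1500 bp, at 21865920, 21866139, 21866314, 21866628, 21866800 and 21867418. Their scores were 10.7, 5.48, 5.40, 5.72, 16.4 and 40.8. The late list had 4.01 at 21865831 and 17.1 at 21867427, the partners of the first and the last of the 6. Of 3429 early regions, 40 held more positions than this one. The early position at 21868576, with 5.45, closed the group without a late partner. The 4 early positions between the ends of this region were absent from the late list within 200 bp, while both ends recurred. The early positions from 21865920 to 21866800 share the number 786 in their deposited names, and 21867418 has 950. Whether positions with a shared number are separate sites was not tested.

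Spacing within the interval followed from this layout. Late neighbours were a median of 2116 bp apart (10 spacings from 225 to 15840 bp), and early neighbours 1114 bp (23 spacings from 172 to 9013 bp). In the other 3R windows with at least 2 positions, the median of the window medians was 1676 bp late and 3114 bp early. A shorter median than that of the interval was found in 69 of 132 windows late and 86 of 238 early. All of these windows held fewer early positions than the interval, and the comparison does not adjust for their number. Among the 23 other windows with 10 or more early positions, most had a shorter early median than the interval. Their early medians ran from 314 bp, at the early runner-up, to 3169.5 bp. Spacings of up to 1000 bp made up 3 of 10 late spacings (30.0%), against 33.5% on the rest of 3R, and 11 of 23 early spacings (47.8%), against 34.5% on the rest of 3R. Most of these short spacings in the interval joined positions that share a number in their deposited names. They were 225 and 447 bp late, and 285, 310, 289, 219, 175, 314, 172 and 404 bp early. Shared numbers were not counted on the rest of 3R. Chained at that distance, the members formed 8 late and 13 early regions, more than any of the 396 other windows, whose highest counts were 6 late and 10 early. The high count of the interval was therefore not made by 1 dense region alone. Start to start, the early regions were a median of 3455 bp apart, from 1114 to 9013 bp.

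The shares of members recurring between the ages in the E(spl) interval were a little lower than those of the whole lists. Of the 11 late members, 10 had an early position within 200 bp (90.9%, 95% exact interval 58.7 to 99.8), where the whole late list had 94.6%. Of the 24 early members, 9 had a late one (37.5%, 18.8 to 59.4), where the whole early list had 43.3%. Both background shares lay inside the intervals, which cover counting error only and treat neighbouring positions as independent. With 11 and 24 members these intervals are wide, so they do not show that the shares are alike. Over the 23 other windows of 3R with 10 or more early positions, the median share of early positions with a late partner was 50% (range 25.0 to 100), and 19 of the 23 were higher than the interval.

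**Figure D3:**
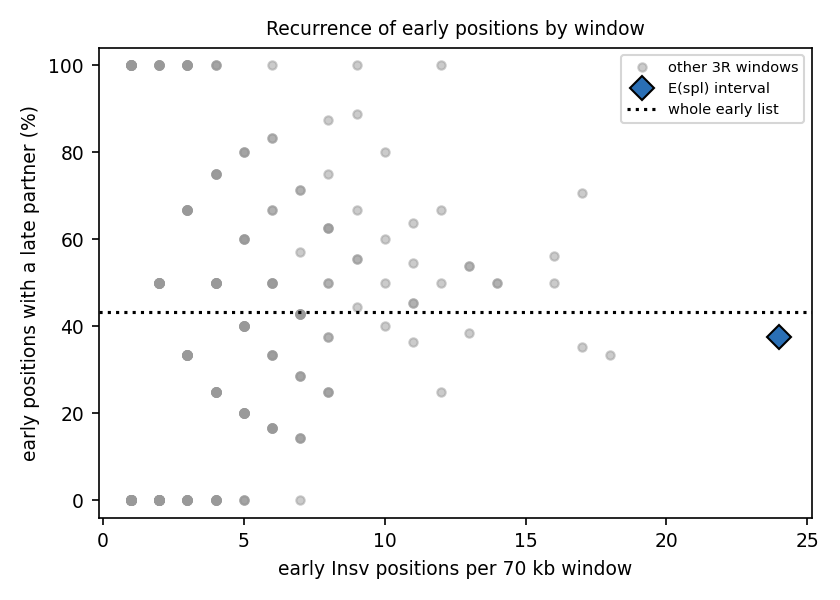
Percent of early Insv positions with a late partner within 200 bp (y axis) against the number of early positions (x axis) in each 3R window of 70 kb that has any; the diamond is the E(spl) interval and the dotted line the whole early list. The interval, at 37.5% and 24 positions, lies a little under the dotted line at 43.3%.

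Recurring early members had the higher scores, as in the list as a whole. The 9 with a partner had a median early score of 24.0 (4.28 to 82.7), and the 15 without had 7.85 (4.93 to 20.7). On the rest of the early list these medians were 21.8 and 8.99. Among the 6 early members above the 75th percentile of the early list, 5 had a partner, against 90.3% of other early positions in that range. Between the 50th and 75th percentiles it was 1 of 5 members (41.5% of others), between the 25th and 50th it was 2 of 5 (24.8%), and below the 25th it was 1 of 8 (16.9%). Of the early members without a late partner, 14 of 15 were thus below the 75th percentile, and the other was 21844124, with 20.7.

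Recurrence was unevenly spread within the interval. In the flanks, 7 of 7 late members and 6 of 7 early members (85.7%, 42.1 to 99.6) had a partner. In the inner group it was 3 of 4 late members and 3 of 17 early members (17.6%, 3.80 to 43.4). The median early score was 14.8 in the flanks and 10.6 in the inner group. The division was drawn from the early positions themselves, so the difference has no test, and the part of the score in it was not tested.

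Where positions recurred, the typical pair in the interval was about as close as in the lists as a whole. The interval held 9 mutual pairs, positions that were each other's nearest within 200 bp, and the late and early positions of a pair were a median of 9 bp apart, against 8 bp over all 2233 pairs. In 6 of the 9 pairs the distance was at most 20 bp, against 1858 of all 2233 pairs. The other 3 pairs, at 46, 89 and 94 bp, were those with the lowest late scores of the 9, 3.92, 4.01 and 6.05.

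The late score was the higher one in 4 of 6 flank pairs and in 0 of 3 inner pairs. Whether the lists share a score scale is not known, so the values are set side by side and give no change in binding. The late value was above the early one in 4 of the 9 pairs of the interval, where the share over all pairs was 28.9%. All 4 were in the flanks, with 113.8 late and 82.7 early, 76.2 and 37.5, 42.8 and 24.0, and 6.05 and 4.28. The remaining flank pairs had 8.37 late and 12.8 early, and 3.92 and 8.99. The pair with 3.92 and 8.99 shares its deposited name numbers with the pair of 113.8 and 82.7. In the inner group the late value was the lower one in 3 of 3 pairs, with 32.4 late and 41.5 early, 17.1 and 40.8, and 4.01 and 10.7.

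On a log2 scale, the late over early ratio of deposited scores had a median of -0.51 over all 2233 pairs. It was 1.02 at 21878510, which 95.8% of all pairs stayed below, and 0.84 at 21833264, with 93.5% below. At 21877990 it was 0.46, with 85.0% below, and at 21831767 it was 0.50, with 86.6% below. The other flank pairs were under the median, with -0.62 at 21881146 (44.6% below) and -1.20 at 21877543 (20.7%). In the inner group it was -0.36 at 21849104 (55.9% below), -1.26 at 21867427 (18.8%) and -1.42 at 21865831 (14.1%). Relative to the typical pair, 4 of the 6 flank pairs and 1 of the 3 inner pairs were thus above the median, from single libraries and without a test.

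**Figure D4:**
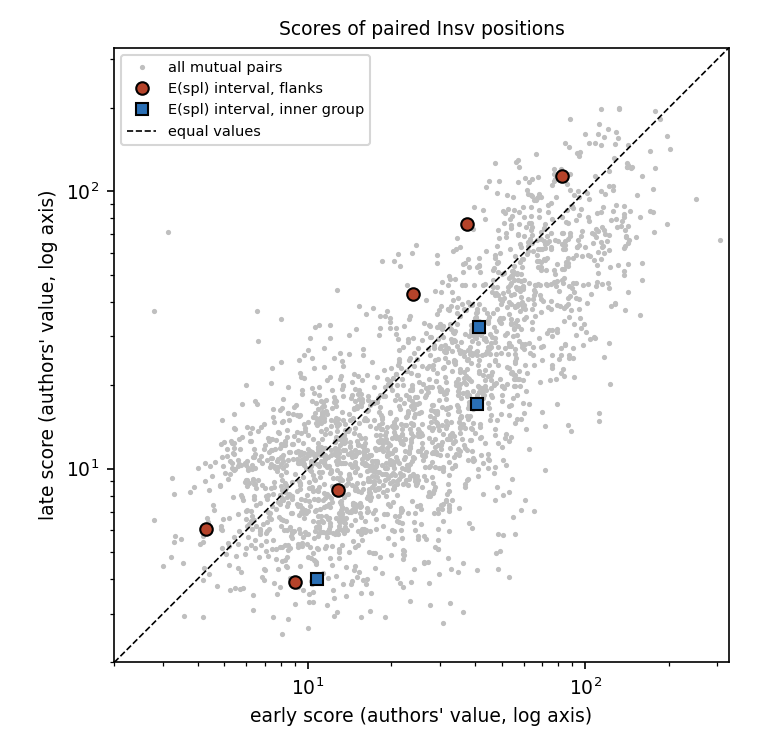
Late score (y axis) against early score (x axis) of all 2233 mutual pairs of Insv positions (grey), both the authors' values on log axes; circles are the 6 flank pairs and squares the 3 inner pairs of the E(spl) interval, and the dashed line marks equal values. Of the circles, 4 lie above the line, and all 3 squares lie below it.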

How the data were processed

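Chromatin immunoprecipitation and sequencing gave 1 deposited list of Insv positions per age. The submitters' processing notes name Bowtie, an aligner, and the dm3 build. Which program called the positions, at what threshold, and whether IgG reads were subtracted is not given in the sources used here. The authors deposited a score for each position, of unnamed scale, and every position is 2 bp wide. Read depth is unknown. Coordinates were made 1-based. A partner is a position of the other list within 200 bp; regions chain positions up to 1000 bp apart and groups up to 5000 bp. Windows of the interval's length were laid edge to edge from it along 3R between the first and last called position. Score percentiles are within a list. Intervals are exact (Clopper-Pearson) binomial. With 1 library per age, no test was made. The members, lists and alternatives were chosen with earlier results of these data known. All member positions and all listed genes are named; other windows are those that exceed the interval, and the early runner-up was added after its values were seen. Motifs and promoters were not analysed here. The code was tested on simulated lists. Versions were Python 3.11.15, scipy 1.17.1, numpy 2.4.6, matplotlib 3.10.9 and pandas 2.3.3.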

Additional observations from a re-analysis of the deposited data

How the results depend on the processing

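A value of the E(spl) interval was taken as kept within 1.5 times for counts and spacings, and within its 95% interval for percentiles. Of 70 values recomputed under 15 settings, 48 were kept. For the median score percentiles these intervals were wide, 2.78 to 94.2 late and 11.3 to 74.45 early, so being kept says little. The late one, 26.2, was 67.7 within the top 50% of the late list and 40.1 with regions, both taken as kept. In the other settings it was 26.2 or 27.8. The early one, 45.9, lay between 44.0 and 58.9. The early count percentile was at least 99.7 in every setting run. The late one was 97.97 with the top 50% of each list and 100 with regions in place of positions. With both ends moved in by 10 kb, which removes the right flank, 7 late positions were left, 6 of them with a partner, at a median spacing of 4557 bp, and 5 early members had a partner. With the top 50% of each list there were 5 late positions, all 5 with a partner (91.8% of all such late positions), 13202 bp apart, and 11 early ones, 5 with a partner (42.2% of all), 2996 bp apart. With the early list reduced to the length of the late list, 11 early positions, 2996 bp apart, were left, and 6 of 11 late members had a partner (70.2% of all late positions). Regions in place of positions gave 13 early regions, 3455 bp apart, and a late spacing of 7517 bp. An overlap of 1 bp left 1 late and 1 early member with a partner (10.1% and 4.51% of all). Chaining at 3000 bp, added after the data were seen, gave a richest group of 7 early positions, and at 10000 bp a group of which 9 had a late partner. The promoter and motif settings were not run because no sequence was used here. No paired analysis was possible because each age has 1 library, and none could be left out. Depth is unknown, so how many early positions lay just under the late threshold cannot be said.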
